A study of Mus musculus with 6 samples.

Results

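The genes described here encode 10 transporters that carry bile acids, phospholipid and other organic anions across the hepatocyte membranes. They were taken by symbol from a fixed list, which was drawn up with earlier results of these data known. All 10 were present among the 23284 genes of the count files and among the 12559 genes that passed the filter on low counts. The list holds 5 uptake carriers of the sinusoidal membrane (Slc10a1, Slco1a1, Slco1a4, Slco1b2 and Slco2b1), 3 exporters of the canalicular membrane (Abcb11, Abcb4 and Abcc2) and 2 exporters of the basolateral membrane (Abcc3 and Abcc4). Liver RNA was sequenced from 6 C57BL/6 mice aged 8 weeks, with 3 given vehicle and 3 given FGF19, the human counterpart of mouse FGF15, at 1 mg/kg. Both groups had fasted overnight and went on fasting for the 6 h of treatment, and the methods describe the mice as male. The comparison asks how these transcripts respond to the hormone. The design has a single dose and a single time, no group received another protein, and only RNA was measured.

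Bile acids circulate between liver and intestine. Hepatocytes take them from portal blood through NTCP (Slc10a1) and, for unconjugated bile acids and many drugs and dyes, through organic anion transporting polypeptides of the Slco family, and pump them into bile through BSEP (Abcb11). MDR2 (Abcb4) delivers the phosphatidylcholine that protects the ducts from bile acids, MRP2 (Abcc2) exports conjugated bilirubin and glutathione conjugates into bile, and MRP3 (Abcc3) and MRP4 (Abcc4) return organic anions to blood. After a meal, bile acids in the ileum induce FGF15/19, which reaches the liver and represses bile acid synthesis.

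After FGF19 treatment 3 of the 5 uptake carriers and the bile salt export pump had lower transcript levels. Of the 10 genes, 4 fell (Slco1a4, Abcb11, Slc10a1 and Slco1b2) and 0 rose, whereas 2.84% of all genes tested fell, 4.56% rose and 7.41% did either. The test was the quasi-likelihood test of edgeR, with p-values adjusted by Benjamini-Hochberg over all genes tested and a threshold of 0.05. The count of 4 depended on single libraries, as it was 2, 2 and 3 without vehicle replicate 1, 2 or 3 and 1, 2 and 4 without FGF19 replicate 1, 2 or 3, while the share of all genes that fell was between 0.719% and 7.30%. It was 2 without TMM scaling between libraries, where 3.02% of all genes fell. All 10 had a log2 fold change below 0, as had 50.1% of all genes tested, and their median log2 fold change was -0.53, whereas that of all genes tested was -0.001. In 9 of the 10, every FGF19-treated mouse lay below every vehicle-treated mouse, which held for 13.8% of all genes tested. Slco1a1 counts among the 9, but its groups were apart by less than counting error. Groups that did not overlap in either direction made up 28.3% of all genes tested. At p under 0.01 without adjustment, 5 of the 10 were lower, against 4.98% of all genes, with Slco2b1 as the additional gene. The study's methods give p under 0.01 as the threshold and do not say whether p was adjusted. The 10 genes together took between 0.349% and 0.369% of the counts of the vehicle-treated mice and between 0.222% and 0.283% of those of the FGF19-treated mice. Fewer hepatocytes and less of these transcripts per hepatocyte cannot be told apart in RNA of whole liver. The summed level of 8 hepatocyte markers, which include Alb and Ttr, was between 99400 and 104000 CPM (counts per 1e6 counts of the library) with vehicle and between 93300 and 103000 CPM with FGF19, so the groups overlapped. Alb, at 69310 ± 1105 CPM (SD, n = 3) with vehicle, made up most of that sum. Of the 8 markers 0 passed the test and 6 had a log2 fold change below 0, and for Cps1 (-0.35, adjusted p = 0.125) and Hnf4a (-0.31, adjusted p = 0.120) the groups did not overlap, with lower values after FGF19. The part of this in the transporter levels was not tested.

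The sequences just upstream of the start sites of the 4 genes that fell are shown, because these genes moved in the same direction and because the bile acid receptor FXR is known to act at an inverted repeat upstream of Abcb11. Each sequence is the 250 bases before a start site from RefSeq on GRCm38.p6, 5′ to 3′ on the strand of the gene. The window is chr2:69342617-69342866 (minus strand) for Abcb11, chr6:141629268-141629517 (plus strand) for Slco1b2, chr12:80968080-80968329 (minus strand) for Slc10a1 and chr6:141856221-141856470 (minus strand) for Slco1a4. Capitals mark matches, on either strand, to the hexamers AGGNCA and TGNCCT with a single base between them (an inverted repeat of the nuclear receptor hexamer), to the hexamer AGGTCA itself, to GTTAAT (the core of an HNF1 site) or to TTCNNNGAA (a STAT site).
Abcb11: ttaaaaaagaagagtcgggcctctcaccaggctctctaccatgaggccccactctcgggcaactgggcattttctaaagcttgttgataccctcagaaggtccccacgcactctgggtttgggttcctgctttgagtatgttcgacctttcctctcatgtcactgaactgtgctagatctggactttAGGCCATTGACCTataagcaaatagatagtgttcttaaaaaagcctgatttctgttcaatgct
Slco1b2: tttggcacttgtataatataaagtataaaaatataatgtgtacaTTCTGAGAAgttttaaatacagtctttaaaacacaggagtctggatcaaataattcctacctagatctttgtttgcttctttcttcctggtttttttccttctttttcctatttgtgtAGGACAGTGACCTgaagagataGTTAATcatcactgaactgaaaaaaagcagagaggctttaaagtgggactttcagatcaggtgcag
Slc10a1: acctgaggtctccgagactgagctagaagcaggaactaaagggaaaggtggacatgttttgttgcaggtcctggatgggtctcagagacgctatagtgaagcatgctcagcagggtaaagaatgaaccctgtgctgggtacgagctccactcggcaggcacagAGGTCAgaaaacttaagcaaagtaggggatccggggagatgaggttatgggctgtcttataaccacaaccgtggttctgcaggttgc
Slco1a4: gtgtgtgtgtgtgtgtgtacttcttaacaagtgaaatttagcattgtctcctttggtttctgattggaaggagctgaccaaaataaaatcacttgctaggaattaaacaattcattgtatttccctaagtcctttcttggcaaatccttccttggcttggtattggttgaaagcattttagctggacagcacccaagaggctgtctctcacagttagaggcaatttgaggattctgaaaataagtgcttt

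The inverted repeat was found upstream of 2 of these genes. In Abcb11 it read AGGCCATTGACCT and in Slco1b2 AGGACAGTGACCT, and in both its last 6 bases are an AGGTCA hexamer on the other strand. Of the 32851 promoter windows of 300 bases (250 before and 50 after a start) in the same table, 29 held this motif, or 0.0883%. These letters were chosen with the promoter sequences in view, and the stricter form, AGGTCA and TGACCT with a single base between them, was in 3 of all windows and in none of the 13 windows of 9 members that the table holds. The AGGTCA hexamer was in 5 of the 13 windows (of Slc10a1, Slco1a1, Slco1b2, Abcb11 and Abcc2) and in 16.3% of all windows. GTTAAT was in 1 of the 13 windows, that of Slco1b2, and in 7.10% of all windows. TTCNNNGAA was in 5 of the 13 windows (of Slc10a1, Slco1b2, Slco2b1 and Abcc4) and in 8.30% of all windows. Its Slc10a1 match lies in a window of that gene that is not shown. Its matches in Abcc4 and in 1 Slco2b1 window lie after the start. The window of Slco1a4, the gene with the largest fall of the 10, held none of these letters. These matches describe sequence, and binding was not measured here. A second Slc10a1 window of the table lies further upstream, and the one shown starts where the gene model of the count files starts.

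**Figure D1:**
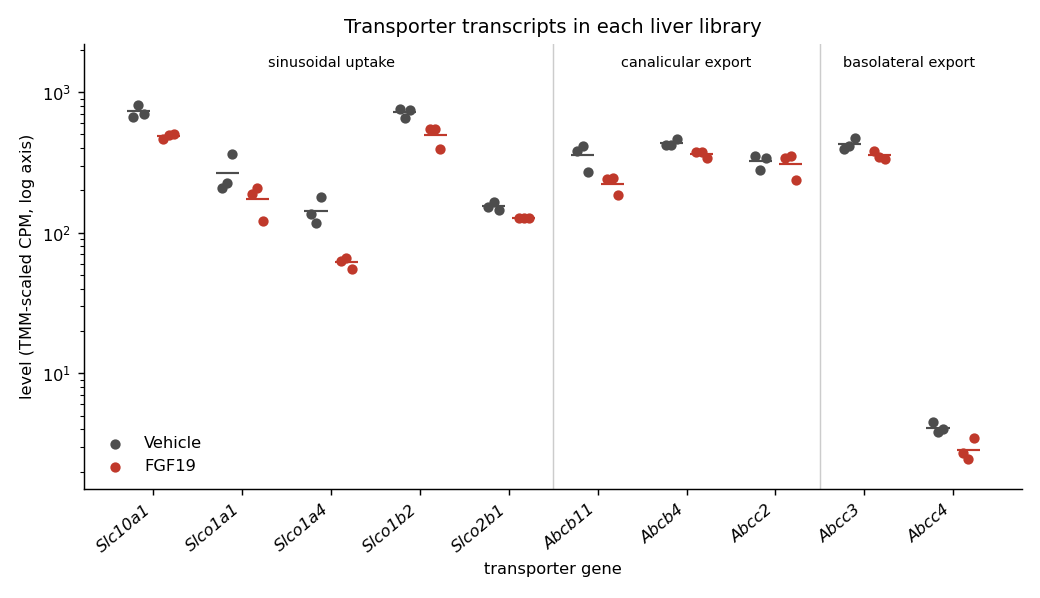
Level of each transporter in each of the 6 libraries, in TMM-scaled CPM on a log axis, with the vehicle group in grey, the FGF19 group in red and the arithmetic mean of each group as a line. The groups are apart for 9 of the 10 genes, for Slco1a1 by less than counting error, and overlap for Abcc2. Abcc4 lies far below the others.

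Slc10a1 encodes NTCP, the sodium-dependent carrier for conjugated bile acids, and lies on chromosome 12 of mouse genome build mm9 from 82054172 to 82069066 on the minus strand. Its level was 667.8, 816.1 and 702.2 CPM in vehicle replicates 1, 2 and 3 and 467.6, 493.2 and 504.0 CPM in FGF19 replicates 1, 2 and 3. All 3 treated mice were close together and below the vehicle-treated mice. Means (SD, n = 3) were 729 ± 77.6 CPM in the vehicle group and 488 ± 18.7 CPM in the treated group, a log2 fold change of -0.58 (standard error 0.10, 95% interval -0.80 to -0.36) with an adjusted p of 0.00908 in edgeR's quasi-likelihood test, or 33.0% lower. Without FGF19 replicate 1 the log2 fold change was -0.55 and the adjusted p 0.0523, and the call held without each of the other 5 libraries.

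The Slco genes encode sodium-independent carriers, and 3 of them, Slco1b2, Slco1a4 and Slco1a1, are neighbours within 317.4 kb of chromosome 6. Slco1b2, the mouse counterpart of the human OATP1B carriers for unconjugated bile acids and bilirubin, lies there from 141578039 to 141635156. It was at 760.0, 654.3 and 744.3 CPM with vehicle and at 549.3, 547.2 and 392.7 CPM with FGF19. The groups were apart, and FGF19 replicate 3 was well below the other treated mice. Means (SD, n = 3) were 720 ± 57.0 CPM in the vehicle group and 496 ± 89.8 CPM in the treated group, and the log2 fold change was -0.54 (standard error 0.14, 95% interval -0.84 to -0.23, adjusted p = 0.0453, edgeR). This call rests close to the threshold. It was lost without TMM scaling (adjusted p = 0.0706). It was also lost without vehicle replicate 1, 2 or 3 or FGF19 replicate 1 or 2 (adjusted p of 0.127, 0.0578, 0.165, 0.0781 and 0.0796), and held without FGF19 replicate 3, where the log2 fold change was -0.39 and the adjusted p 0.0230.

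Slco1a4, which encodes a carrier of bile salts, steroid conjugates and cardiac glycosides (from 141753961 to 141804692), had the largest change of the 10. It was at 136.5, 116.6 and 178.2 CPM in vehicle replicates 1, 2 and 3 and at 63.4, 65.9 and 55.3 CPM in FGF19 replicates 1, 2 and 3. The treated mice were near each other, and all were far below the lowest vehicle-treated mouse. Means (SD, n = 3) were 144 ± 31.5 CPM in the vehicle group and 61.5 ± 5.51 CPM in the treated group, 57.2% lower, with a log2 fold change of -1.22 (standard error 0.15, 95% interval -1.56 to -0.89, adjusted p = 0.00163, edgeR). It was the only member whose call held without each of the 6 libraries in turn, with log2 fold changes between -1.36 and -1.04.

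Slco1a1, its neighbour (from 141855802 to 141895483), carries organic anions and is known for higher expression in male than in female liver. It was at 208.4, 227.2 and 361.3 CPM with vehicle and at 188.3, 208.3 and 121.6 CPM with FGF19. FGF19 replicate 2 and vehicle replicate 1 were level within counting error, so the groups were barely apart. Vehicle replicate 3 and FGF19 replicate 3 stood away from the others in opposite directions. The log2 fold change of -0.62 (standard error 0.24) did not pass the adjusted threshold (adjusted p = 0.150, edgeR), with a 95% interval for the single gene from -1.15 to -0.09. Without vehicle replicate 3 the log2 fold change was -0.33, and without FGF19 replicate 3 it was -0.42. DESeq2 gave it an adjusted p of 0.0462.

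Slco2b1, on chromosome 7 from 106806314 to 106859850, encodes a carrier of steroid sulfates. It was at 153.2, 164.8 and 144.5 CPM with vehicle and at 127.7, 126.5 and 126.9 CPM with FGF19. The treated mice were nearly level with each other and below all vehicle-treated mice. The log2 fold change of -0.28 (95% interval -0.47 to -0.09) had an adjusted p of 0.0773 by edgeR.

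Of the canalicular exporters 1 of 3, Abcb11, fell. It lies on chromosome 2 from 69076339 to 69180673 and was at 383.6, 415.1 and 272.1 CPM in vehicle replicates 1, 2 and 3 and at 240.8, 244.3 and 185.1 CPM in FGF19 replicates 1, 2 and 3. The groups did not overlap, with vehicle replicate 3 the nearest to the treated mice. Means (SD, n = 3) were 357 ± 75.2 CPM in the vehicle group and 223 ± 33.2 CPM in the treated group, 37.4% lower, with a log2 fold change of -0.68 (standard error 0.17, 95% interval -1.05 to -0.31, adjusted p = 0.0383, edgeR). The call was lost without vehicle replicate 1 or 2 or FGF19 replicate 1, 2 or 3 (adjusted p of 0.114, 0.109, 0.0856, 0.0810 and 0.0527). Without vehicle replicate 3 it held, with a log2 fold change of -0.84. It was also lost without TMM scaling (adjusted p = 0.0555).

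Abcb4, on chromosome 5 from 8893721 to 8959226, was at 421.3, 421.2 and 466.4 CPM with vehicle and at 377.9, 374.6 and 341.0 CPM with FGF19. Its groups were apart, but the log2 fold change of -0.26 (95% interval -0.46 to -0.06) had an adjusted p of 0.116 by edgeR. Abcc2, on chromosome 19 from 43856798 to 43912708, was at 349.8, 277.7 and 340.4 CPM with vehicle and at 341.6, 351.3 and 238.4 CPM with FGF19. It was the only member whose groups overlapped, and FGF19 replicates 1 and 2 were at the level of the highest vehicle-treated mice. Its log2 fold change was -0.06 (95% interval -0.40 to 0.29, adjusted p = 0.868, edgeR), and it was 0.11 without FGF19 replicate 3 and 0.01 without vehicle replicate 1, so these data give Abcc2 no direction.

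The basolateral exporters had lower means and did not pass the adjusted threshold. Abcc3, on chromosome 11 from 94204609 to 94254290, was at 391.5, 416.1 and 471.4 CPM with vehicle and at 382.5, 344.3 and 335.6 CPM with FGF19. The groups were apart by a small gap, between FGF19 replicate 1 and vehicle replicate 1. Its log2 fold change was -0.27 (95% interval -0.49 to -0.04, adjusted p = 0.145, edgeR). Abcc4, on chromosome 14 from 118881914 to 119105441, was scarce, with between 53 and 94 reads a library. It was at 4.48, 3.82 and 4.02 CPM with vehicle and at 2.70, 2.44 and 3.44 CPM with FGF19. Its log2 fold change was -0.52 (95% interval -0.94 to -0.10, adjusted p = 0.131, edgeR), and the adjusted p was 0.0438 without FGF19 replicate 3.

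**Figure D2:**
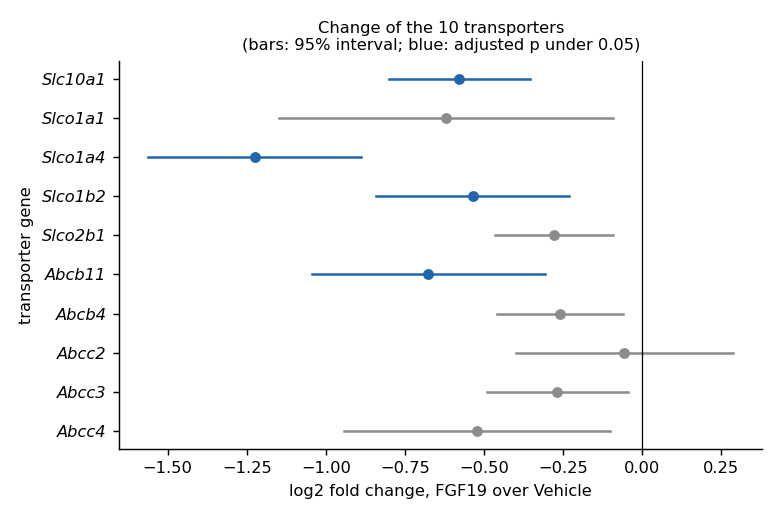
Log2 fold change of each transporter, FGF19 over vehicle, as a point with its 95% interval for the single gene, in blue where the adjusted p was under 0.05 and in grey otherwise. Slco1a4 is furthest from 0 at -1.22, and Abcc2 is nearest to 0 at -0.06.

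Counting error was below the spread between mice in both groups for 8 of the 10 genes, all except Slco2b1 and Abcc4. Apart from Abcc4, the lowest count of a member in a library was 1222 (Slco1a4, FGF19 replicate 3), and counting alone gives a coefficient of variation of between 0.830% and 2.73% of a group, whereas the observed coefficient was up to 31.4% (Slco1a1, vehicle). The FGF19 group of Slco2b1, with an observed 0.496% and 1.90% from counting, was closer together than counting alone gives. For Abcc4 counting alone gives 11.0% with vehicle and 12.7% with FGF19, where 8.28% and 18.2% were observed. These counting values treat each read as independent. Mates of a pair were counted singly, so counting error can be larger, and the 18.2% of Abcc4 is not shown to exceed it. FGF19 replicate 3 had the lowest value of its group for 7 of the 10 genes, all except Slc10a1, Slco2b1 and Abcc4. Without this library 4 members were again lower, but Abcb11 (adjusted p = 0.0527 in edgeR's quasi-likelihood test) was no longer among them and Abcc4 was, and 7.30% of all genes tested were then lower. Total counts were between 18994654 and 22920056 a library.

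**Figure D3:**
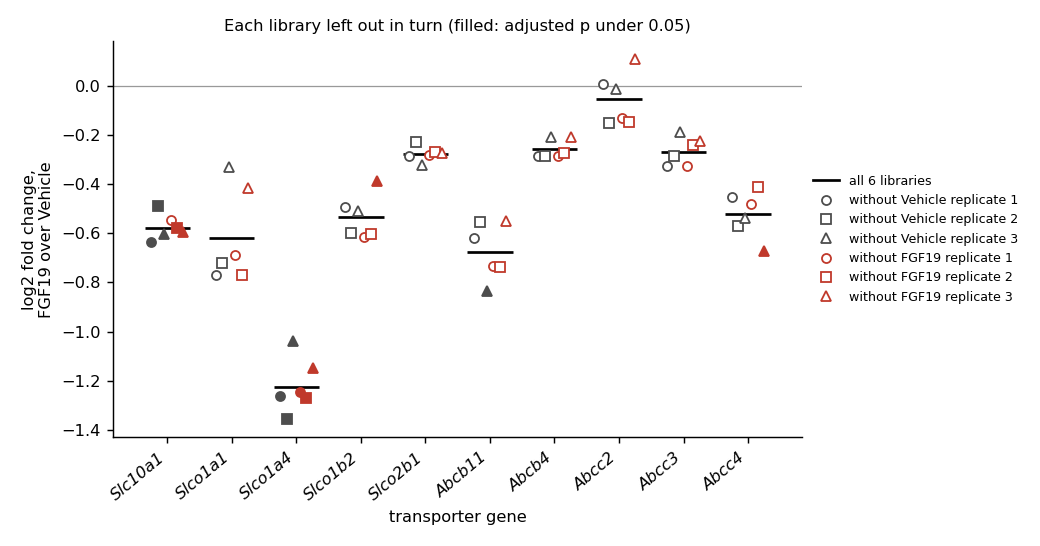
Log2 fold change of each transporter, FGF19 over vehicle, with all 6 libraries (line) and after leaving out 1 library at a time (grey symbols for a vehicle library, red for an FGF19 library, filled where the adjusted p was under 0.05). All 6 symbols of Slco1a4 are filled, those of Slco1b2 and Abcb11 are filled once each, and those of Abcc2 lie on both sides of 0.

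Few read-length windows of these genes were shared with coding transcripts of other genes. Among windows of the read length of 100 bases in the longest coding transcript of each gene in GENCODE M1 (NCBIM37, the same assembly as mm9), 1.10% of those of Slco1a4 and 0.870% of those of Slco1a1 also occur in a transcript of another Slco1a gene, and 0.280% of those of Abcb4 occur in Abcb1a. For the other 7 genes there were 0. Pseudogenes, noncoding genes and the rest of the genome were not compared. The transcript searched can also be shorter than the exons counted, as for Slc10a1 (1579 against 2102 bases). Reads that fit several places were left out of the counts. No exon of the 10 genes overlaps an exon of another gene in the annotation that was counted. In GENCODE M1, 136 of the 4895 exon bases of Abcb11 and 418 of the 4988 of Slco2b1 lie opposite the exons of Gm13613 and Gm15635, whose reads cannot be told apart from theirs, because the counting did not use strand.

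Levels of different genes were compared per length, as CPM divided by the deposited exon length in kilobases (RPKM). In vehicle-treated mice the order was Slc10a1 at 347 ± 36.9 RPKM (SD, n = 3), Slco1b2 at 218 ± 17.3, Abcb4 at 107 ± 6.39, Abcc3 at 85.2 ± 8.18, Abcb11 at 72.9 ± 15.4, Slco1a1 at 67.0 ± 21.0, Abcc2 at 59.9 ± 7.27, Slco1a4 at 37.6 ± 8.23, Slco2b1 at 30.9 ± 2.04 and Abcc4 at 0.696 ± 0.0577 RPKM. The ranges over mice of Abcc3 and Abcb11, of Abcb11 and Slco1a1, of Slco1a1 and Abcc2, and of Slco1a4 and Slco2b1 overlapped, so these neighbours did not differ beyond their spread. In FGF19-treated mice the first 4 places were unchanged (232 ± 8.89, 151 ± 27.3, 89.4 ± 5.0 and 70.8 ± 4.99 RPKM). Abcc2 at 57.6 ± 11.6 RPKM then came before Abcb11 at 45.6 ± 6.79, Slco1a1 at 43.5 ± 11.4, and Slco2b1 at 25.5 ± 0.126 came before Slco1a4 at 16.1 ± 1.44, with Abcc4 last at 0.485 ± 0.0884 RPKM. The ranges of Slco2b1 (25.4 to 25.6 RPKM) and Slco1a4 (14.5 to 17.2 RPKM) were apart in the treated mice, whereas those of Abcc2 and Abcb11 and of Abcb11 and Slco1a1 overlapped. Within each treated mouse Abcb11 was nevertheless below Abcc2, with ratios of 0.776, 0.766 and 0.854. The ratio of Slco1a1 to Abcb11 was 0.965, 1.05 and 0.81 in these mice, on both sides of 1.

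Summed per length, the uptake carriers were at 667, 708 and 727 RPKM in vehicle replicates 1, 2 and 3 and at 479, 496 and 429 RPKM in FGF19 replicates 1, 2 and 3, and the ratio of the means was 0.668. The canalicular exporters summed to 247, 240 and 233 RPKM with vehicle and to 205, 207 and 166 RPKM with FGF19, a ratio of 0.803. The basolateral exporters summed to 79.0, 83.8 and 94.9 RPKM with vehicle and to 76.9, 69.2 and 67.7 RPKM with FGF19, a ratio of 0.829. The groups were apart in each role, with the narrowest gap for the basolateral exporters. Slc10a1 made up 49.5% ± 4.73 (SD, n = 3) of the uptake sum with vehicle and 49.9% ± 5.18 (SD, n = 3) with FGF19, and Slco1b2 31.2% ± 3.25 and 32.0% ± 3.76 (SD, n = 3). The share of Slco1a4 was 5.36% ± 1.05 (SD, n = 3) with vehicle and 3.44% ± 0.0577 (SD, n = 3) with FGF19, and did not overlap between the groups. The share of Slco2b1 was 4.42% ± 0.376 (SD, n = 3) with vehicle and 5.46% ± 0.416 (SD, n = 3) with FGF19, higher in every treated mouse. Abcc3 made up at least 99.0% of the basolateral sum in every library.

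**Figure D4:**
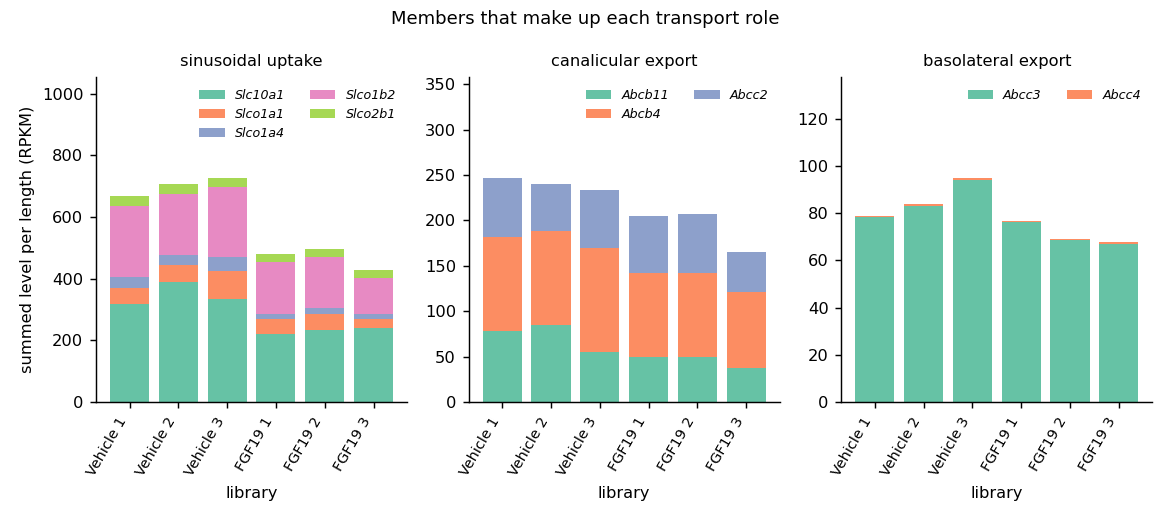
Level per length in RPKM, stacked by gene, in each library (bars), for the uptake carriers, the canalicular exporters and the basolateral exporters, with separate vertical scales. The uptake sum is between 667 and 727 RPKM in the vehicle libraries and between 429 and 496 RPKM in the FGF19 libraries, and Slc10a1 and Slco1b2 make up most of it.

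The ratio of each pair of members was also taken within each library, which removes the scaling between libraries. Of the 45 pairs, 14 (31.1%) had ratios that did not overlap between the groups, a share near the 28.2% of all pairs of tested genes with a read in every library. Of these 14 pairs 8 involve Slco1a4, which was lower relative to each of the other genes except Abcb11, and ratios of Slco1a4 to all other such genes did not overlap in 92.5% of cases. The ratio of Slc10a1 to Slco1a4 was 8.90, 12.7 and 7.17 with vehicle and 13.4, 13.6 and 16.6 with FGF19. The ratio of Slco1a1 to Slco1a4, its neighbour on the chromosome, was 1.47, 1.88 and 1.95 with vehicle and 2.86, 3.05 and 2.12 with FGF19. No test of these ratios was run, and pairs that share a gene are not independent.

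A list of 29 other genes of bile formation, drug transport and the transporter gene families, of which 24 were tested, also holds Abcc9, a family member that is not a transporter. Of the 24 genes 3 fell, Abcc9 among them, 1 rose and 20 did not pass the test, with a median log2 fold change of 0.001. Of all genes tested 2.84% fell and 4.56% rose. Slc47a1, which encodes the cation exporter MATE1, was at 131.0, 119.6 and 110.0 CPM with vehicle and at 70.1, 74.7 and 87.6 CPM with FGF19, a log2 fold change of -0.63 (adjusted p = 0.00904, edgeR), and kept its call without each library. Abcc6, an ATP exporter of the basolateral membrane whose loss causes ectopic calcification, went from 131 ± 3.66 to 89.4 ± 11.4 CPM (SD, n = 3), with a log2 fold change of -0.55 and an adjusted p of 0.0147 by edgeR. Its call was lost without vehicle replicate 3 or FGF19 replicate 2 (adjusted p up to 0.0689). Abcc9, the sulfonylurea receptor subunit of a potassium channel, was lower with a log2 fold change of -0.54 and an adjusted p of 0.0482, which held without FGF19 replicate 2 and was lost without each of the other 5 libraries (adjusted p up to 0.181). With all libraries it was also lost without TMM scaling (adjusted p = 0.0691) and when each library had to reach 1 CPM (adjusted p = 0.0513).

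Abcg8, which with Abcg5 forms the canalicular exporter of cholesterol, was the gene of this list that rose. It was at 91.2, 90.1 and 112 CPM with vehicle and at 144, 140 and 128 CPM with FGF19, so the groups were apart. Its log2 fold change was 0.49 (adjusted p = 0.0249, edgeR), and the call was lost without vehicle replicate 1 or 2 or FGF19 replicate 1 or 2 (adjusted p up to 0.0968). Abcg5, named as its partner after its values were seen, was at 69.5, 63.5 and 85.3 CPM with vehicle and at 90.7, 94.0 and 91.8 CPM with FGF19, with a log2 fold change of 0.34 and an adjusted p of 0.105. Slco3a1 (log2 fold change 0.54) and Abcc1 (0.41) were the other genes with the largest values and did not pass (adjusted p of 0.0914 and 0.377). Slc51a, a subunit of the basolateral bile acid exporter that is listed under its older symbol Osta, and the Slco1a4 relatives Slco1a5 and Slco1a6 had 0 reads in all 6 libraries, which allows up to between 0.131 and 0.158 CPM, a limit for counting error only.

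**Figure D5:**
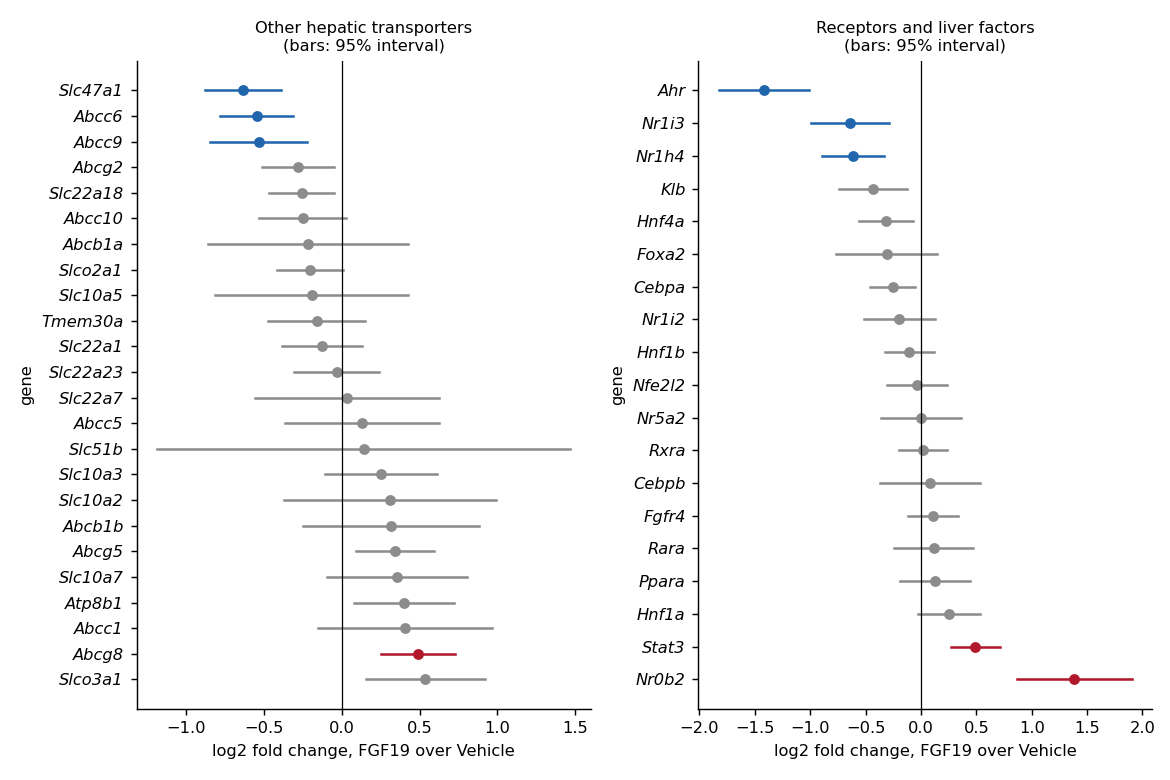
Log2 fold change, FGF19 over vehicle, of the 24 other genes of the transporter list tested (left) and of 19 receptors and liver factors (right), as points with 95% intervals for single genes, in blue where lower and in red where higher at an adjusted p under 0.05. Most intervals cross 0, and Ahr and Nr0b2 are furthest from 0 on the right.

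Receptors and factors known to control these transporters were examined in a list of 19 genes, all of them tested. Of these 3 fell, 2 rose and 14 did not pass the test, whereas 2.84% of all genes tested fell and 4.56% rose. The median log2 fold change of the list was -0.04. Nr1h4, the gene of the bile acid receptor FXR, was at 163, 140 and 149 CPM with vehicle and at 84.9, 93.1 and 117 CPM with FGF19. It fell with a log2 fold change of -0.61 (adjusted p = 0.0185, edgeR), and this call was lost without vehicle replicate 1 or 3 or FGF19 replicate 1 or 2 (adjusted p up to 0.0864). Nr0b2, the gene of SHP, a corepressor that FXR induces, was at 13.9, 21.8 and 30.9 CPM with vehicle and at 64.5, 54.5 and 54.8 CPM with FGF19. It rose with a log2 fold change of 1.38 (adjusted p = 0.00823, edgeR) and kept its call without each library. Nr1i3, the gene of the xenobiotic receptor CAR, known to control Slco1a4, Abcc2 and Abcc3, was at 169, 192 and 177 CPM with vehicle and at 103, 93.8 and 148 CPM with FGF19. Its log2 fold change was -0.64 (adjusted p = 0.0381), which was lost without each library except FGF19 replicate 3 (adjusted p up to 0.139).

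Ahr, the gene of the aryl hydrocarbon receptor, had the largest fall of this list. It was at 43.3, 53.7 and 56.8 CPM with vehicle and at 20.4, 23.3 and 13.9 CPM with FGF19, with a log2 fold change of -1.42 (adjusted p = 0.00197, edgeR), and kept its call without each library. Stat3, which carries cytokine signals, rose with a log2 fold change of 0.49 (adjusted p = 0.0172), and its call was lost without vehicle replicate 1 or 3 or FGF19 replicate 1 or 2 (adjusted p up to 0.0797). Klb, the gene of the FGF19 co-receptor β-Klotho, had a log2 fold change of -0.43 and did not pass (adjusted p = 0.0905).

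Cyp7a1, the rate-limiting enzyme of bile acid synthesis and a known target of FGF19, served as a reference for the response. It was at 310, 272 and 222 CPM in vehicle replicates 1, 2 and 3 and at 9.35, 12.4 and 12.4 CPM in FGF19 replicates 1, 2 and 3, with a log2 fold change of -4.56 (adjusted p = 9.41e-07 in edgeR's quasi-likelihood test). All 3 treated mice were therefore far below all vehicle-treated mice, and no transporter of the list changed by a comparable amount.

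Markers of other cells were measured beside these results. The summed level of 6 neutrophil markers was between 2.43 and 3.77 CPM with vehicle and between 6.25 and 9.37 CPM with FGF19, with 1 of the 3 tested markers higher. The sums of 8 cholangiocyte markers (75.2 to 92.3 CPM with vehicle and 59.6 to 89.3 CPM with FGF19) and of 6 Kupffer cell markers (146 to 181 and 146 to 172 CPM) overlapped, although Marco rose among the latter, with a log2 fold change of 2.29 (adjusted p = 0.00105, edgeR). The sums of 6 endothelial markers (240 to 260 and 241 to 251 CPM) and of 6 stellate cell markers (214 to 288 and 198 to 243 CPM) also overlapped, although Colec11 of the latter list fell, with a log2 fold change of -0.75 (adjusted p = 0.00878, edgeR), and none of the markers in these lists was at 0 in all libraries. The part of these cells in the transporter levels was not tested.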

How the data were processed

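Liver RNA of 3 vehicle-treated and 3 FGF19-treated mice was sequenced as paired reads of 100 bases. Alignment by the authors was with STAR, followed by featureCounts 1.5.2 on mm9 exons, and the deposited values are raw counts per gene without normalization. Per the file headers, strand was not used, mates were counted singly and reads that align to several places were left out. The submitters' processing notes also name Trimmomatic 0.36 and STAR 2.5.3a. A deposited table of the authors' own comparison (fold changes and p-values) was not used.

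Counts were filtered with filterByExpr, scaled by TMM and tested in R 4.3.3 with edgeR 4.0.16 (quasi-likelihood test, group only, Benjamini-Hochberg adjustment over 12559 genes). The kind of edgeR test is not given in the sources used here. CPM and RPKM were computed on TMM-scaled library sizes. The fit was tested on simulated data. Pairs of libraries of a group differed by a chi-square statistic of between 8.25 and 39.4 per degree of freedom, so all 6 were counted separately.

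Alternatives were DESeq2 1.42.0, limma-voom (limma 3.58.1), the likelihood ratio test, no TMM, no filter, at least 1 CPM in every library, a replicate block, p under 0.01 and each library left out. The members, lists and tests were chosen with earlier results of these data known. All members were named; list genes were named if called or among the 6 with the largest log2 fold change of a list. Older symbols were matched through the RefSeq table (GRCm38.p6), and 9 of the 10 members matched its promoters, each found once in mm9.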

Additional observations from a re-analysis of the deposited data

How the results depend on the processing

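The fall of Slco1a4 held in the 7 alternative fits with all libraries (log2 fold change -1.23 to -1.21) and without each library. The fall of Slc10a1 held in the 7 fits with all libraries. Slco1b2 and Abcb11 lost their calls with no TMM scaling, which left 2 members lower, and Slco1b2 also lost it with a replicate block (adjusted p = 0.0715), which left 3. The block also ended the calls of Abcc9, Abcg8 and Stat3 (adjusted p of 0.0741, 0.0685 and 0.0595). DESeq2 called 5 members lower, and 0 were higher in any alternative. With each library left out, between 1 and 4 members were lower. The log2 fold change of Abcc2, between -0.15 and 0.11 in those fits, turned positive without vehicle replicate 1 (0.006) and without FGF19 replicate 3 (0.107). The cause was not tested.

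Over all genes, 357 were lower and 573 higher. The lower genes numbered 579 with the likelihood ratio test, 626 at p under 0.01, 164 with the replicate block and between 91 and 926 with each library left out, and the higher genes 370 with the block and between 236 and 1015. In the lists, the block left 0 genes of the other transporter list higher and 1 regulator higher, and the likelihood ratio test gave 2 genes of the former list higher. With each library left out, between 1 and 4 genes of that list were lower and between 0 and 4 higher, between 1 and 5 regulators were lower and between 1 and 2 higher, and between 1 and 2 conjugation and scaffold genes were higher. Deviations from the group means of mice with the same replicate number correlated at -0.03, -0.18 and -0.18 across genes. Mice with different numbers correlated at between -0.13 and 0.23. These values do not show pairing by number, but with 3 mice a group they cannot exclude it. The 6 members that did not pass the adjusted threshold are not shown to be unchanged.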

Other observations

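Genes that conjugate bile acids or hold transporters at the membrane made up a further list of 12, all tested. Of these 0 fell, 2 rose and 10 did not pass edgeR's quasi-likelihood test at an adjusted p under 0.05, with 2 lower at an unadjusted p under 0.05 and 0 lower by any alternative, DESeq2 included. The median log2 fold change was -0.07, and of all genes tested 2.84% fell and 4.56% rose. Slc9a3r1, which encodes the scaffold NHERF1 of the apical membrane, was at 147, 124 and 130 CPM with vehicle and at 229, 241 and 239 CPM with FGF19, a log2 fold change of 0.82 (adjusted p = 0.000991, edgeR), and kept its call without each library. Msn, the gene of moesin, which links membrane proteins to actin and is also abundant in blood and endothelial cells, rose with a log2 fold change of 0.61 (adjusted p = 0.0252), and this call was lost without each library except FGF19 replicate 3 (adjusted p up to 0.0958). Its relatives Ezr and Rdx, the genes of ezrin and of radixin, the form that predominates in hepatocytes, were at log2 fold changes of 0.42 and -0.29 and did not pass (adjusted p of 0.165 and 0.261). The ligases Slc27a5 and Slc27a2 were at -0.24 and -0.26 (adjusted p of 0.168 and 0.227).

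Genes whose values over the 6 libraries were most like those of the members that fell were sought by the root mean square difference in log2 CPM centred on the vehicle mean, among 11658 genes with a mean of at least 1 CPM. For Slc10a1 they were Tesk2 and Cml1 (0.0535 and 0.0556), for Slco1b2 Bche and Ptprd (0.0455 and 0.0624), for Abcb11 Acaca and Fam78a (0.117 and 0.150) and for Slco1a4 Arl4d and Car1 (0.174 and 0.175). Some likeness of this kind is given by the choice among so many genes.

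Of the other bile acid synthesis genes, Cyp8b1, which sets the share of cholic acid, fell from 1275 ± 80.4 to 791 ± 109 CPM (SD, n = 3), with a log2 fold change of -0.69 (adjusted p = 0.00855, edgeR), a change of the size seen for Abcb11. Cyp7b1 and Cyp27a1 of the alternative pathway were at log2 fold changes of 0.61 and -0.33 and did not pass (adjusted p of 0.0783 and 0.142). Every treated mouse had more Cyp7b1 than any mouse given vehicle, but FGF19 replicate 2 (162.3 CPM) and vehicle replicate 2 (162 CPM) were level. Its adjusted p was 0.0135 by DESeq2 and 0.0232 by the likelihood ratio test. These were the only 2 of the 7 alternative fits with all libraries that called it. It was called in 0 of the 6 fits with a library left out (log2 fold change 0.40 to 0.77, adjusted p up to 0.22).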
